A study of Mus musculus with 8 samples.

Results

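In immortalized otic progenitors, 1943 of 7472 listed peaks of trimethylated lysine 4 of histone H3 (H3K4me3) overlapped no peak of the H3K4me3 list from neurons made from the same cells, by 1 bp or more. Peaks were chosen by that overlap alone, which rests on the H3K4me3 lists of both states. They are called lost here, and the other 5529 kept. The word describes the lists only, since a site that fell short of a listing may still carry the mark. Lost peaks made up 26% of the proliferating list (exact 95% interval 25.0 to 27.0, which covers counting error only, as do all intervals below) and covered 6.79 Mb, or 21.7% of its length.

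The cells were iMOPs, a single immortalized mouse line of multipotent otic progenitors, labelled wild-type and untreated. CUT&Tag, in which an antibody steers a transposase to its target so that nearby DNA is cut and sequenced, was run with antibodies to CHD4, H3K4me3 and p300, on 500000 cells per library with paired reads of 150 bp. Proliferating cells grew in DMEM/F12 medium containing B27, carbenicillin and bFGF (20 ng/ml), and the neurons were kept in Neurobasal medium containing N21, L-glutamine and K03861 (1 µM), an inhibitor of the cell-cycle kinase CDK2. Each antibody had 1 library per state, so no value below has a replicate check and no test between states was possible. The states differed in medium, growth factor and inhibitor at once, and these cannot be told apart. The 6 peak lists held 26724 peaks, the proliferating H3K4me3 list was longer than the neuron list (7472 against 5625 peaks), and the lists of the 2 IgG libraries were not used here. H3K4me3 lay at an end of 13 of 34 otic progenitor genes in proliferating cells, Sox2 and Sox9 among them, a share (38.2%) close to that of all protein-coding genes (37.6%, 8224 of 21887). The other marker lists had smaller shares, with 5 of 19 glial, 4 of 18 mesenchyme, 2 of 20 liver, 1 of 16 blood and endothelium and 1 of 20 hair cell genes marked. Among 49 neuronal cytoskeleton, synapse and channel genes, the 8 with H3K4me3 in proliferating cells all kept it, and Elavl3 and Gria2 had it in neurons only.

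H3K4me3 marks the start regions of genes that are transcribed or ready to be, above all those rich in CG dinucleotides. CHD4 is the ATPase of the NuRD complex, which moves nucleosomes and carries histone deacetylases, and p300 is an acetyltransferase that marks active enhancers and promoters. FGF receptors signal through the MAP kinase ERK, which switches on both ETS transcription factors (Etv4, Etv5) and feedback inhibitors of the pathway (the Dusp, Spry and Spred proteins).

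To show what lay under such peaks, the 250 bases before the start of Dusp6, Spred3 and Etv5 are printed 5′ to 3′, from RefSeq (GRCm38.p6, the assembly also called mm10). They were chosen as the strongest lost peaks over a start in the RefSeq promoter table among members of the FGF and otic gene lists described below. Spry4 and Tbx2, whose lost peaks were stronger than those of Spred3 and Etv5, are named only. Capitals mark matches, on either strand, to CCAAT or GGGCGG. Dusp6 (chr10:99262981-99263230, plus strand) had 16 CG dinucleotides and a match 46 bases before its start, and its H3K4me3 signal was highest 44 bp after the start.
Dusp6: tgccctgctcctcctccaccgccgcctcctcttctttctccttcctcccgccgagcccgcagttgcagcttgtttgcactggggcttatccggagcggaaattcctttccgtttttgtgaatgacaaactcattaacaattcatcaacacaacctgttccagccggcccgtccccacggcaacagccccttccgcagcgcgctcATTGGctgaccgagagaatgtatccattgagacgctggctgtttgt
Spred3 (chr7:29168648-29168897, minus strand) had 3 matches to GGGCGG and 6 CG dinucleotides, and the highest signal of its peak lay at -1628 bp from the start, in a peak that also reached an end of its neighbour Ggn.
Spred3: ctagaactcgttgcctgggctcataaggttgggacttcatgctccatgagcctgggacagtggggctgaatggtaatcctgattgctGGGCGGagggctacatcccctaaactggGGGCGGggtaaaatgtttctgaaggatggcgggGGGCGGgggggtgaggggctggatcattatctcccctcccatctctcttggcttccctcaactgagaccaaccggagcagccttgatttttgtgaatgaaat
Etv5 (chr16:22439571-22439820, minus strand) had 27 CG dinucleotides, 3 matches to CCAAT and 3 to GGGCGG, and its signal was highest 55 bp before the start.
Etv5: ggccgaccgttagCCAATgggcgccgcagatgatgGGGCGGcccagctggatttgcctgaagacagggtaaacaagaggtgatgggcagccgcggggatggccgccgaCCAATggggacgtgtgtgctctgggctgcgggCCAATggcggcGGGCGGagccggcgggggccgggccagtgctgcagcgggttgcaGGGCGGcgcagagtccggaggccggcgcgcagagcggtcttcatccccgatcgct
None of the 3 windows held the E-box CACGTG, the AP-1 site TGACTCA, the TATA element TATAAA or the ETS core GGAAGT. A match is a description and not a binding site.

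A different kind of lost peak is shown by the histone genes H3c14 and H3c15, whose starts lay under the strongest lost peak of all (chr3:96236301-96249450, 99.9th percentile of the list by total signal). Capitals mark the longest run of bases that both upstream windows share.
H3c14 (chr3:96246435-96246684, plus strand): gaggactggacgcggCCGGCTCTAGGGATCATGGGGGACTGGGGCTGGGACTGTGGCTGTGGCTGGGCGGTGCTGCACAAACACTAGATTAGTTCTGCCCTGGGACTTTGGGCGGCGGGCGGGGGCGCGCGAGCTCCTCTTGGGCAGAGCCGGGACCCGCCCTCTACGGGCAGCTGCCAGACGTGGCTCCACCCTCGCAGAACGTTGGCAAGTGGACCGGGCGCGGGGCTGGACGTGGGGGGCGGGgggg
H3c15 (chr3:96239128-96239377, minus strand): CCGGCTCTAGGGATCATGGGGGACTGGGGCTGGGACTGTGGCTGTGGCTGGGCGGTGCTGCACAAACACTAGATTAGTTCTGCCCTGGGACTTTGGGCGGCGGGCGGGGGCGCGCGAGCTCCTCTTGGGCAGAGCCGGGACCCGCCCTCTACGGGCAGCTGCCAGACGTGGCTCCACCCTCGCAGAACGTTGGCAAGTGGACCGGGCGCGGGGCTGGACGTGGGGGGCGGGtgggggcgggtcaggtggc
The shared run was 231 bases of 250, longer than the 150-bp reads. The neighbouring H2ac18 and H2ac19 shared a run of 169 bases in their windows. A read from such a stretch fits more than 1 place, and the sources used here do not say how such reads were handled.

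Genes of the FGF pathway were among those whose H3K4me3 was listed in proliferating cells only. In proliferating cells 8224 protein-coding genes had an H3K4me3 peak no more than 1 kb from either annotated end. Of these, 1797 (21.9%) had none in neurons. Of 18 marked genes on a list of 30 FGF receptors, ETS targets and feedback genes, 8 were in that class (44.4%, an interval of 21.5 to 69.2 that just includes the 21.9%), and the marked members of the list ranked high, at a median percentile of 72.2 against 56.1 over all marked genes. The feedback genes were Dusp6 (a phosphatase of ERK), Spry4, Spry1 and Spred3, the transcription factors Etv5 and Etv4, and the receptors Fgfr2 and Fgfr3. The other 10 genes kept the mark: Dusp4, Dusp14, Spry2, Spred1, Spred2, Egr1, Etv1, Phlda1, Fosl1 and Fgfr1. Loss therefore split the families, with Dusp6 against Dusp4, Spry4 and Spry1 against Spry2, and Etv4 and Etv5 against Etv1.

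Dusp6 had the strongest lost peak outside the multi-copy loci described below. It was 10200 bp wide (chr10:99259751-99269950), at the 96.9th percentile with a total signal of 324565 in the authors' units, and the nearest neuron H3K4me3 peak was 149950 bp away. CHD4 was listed there in both states and p300 in proliferating cells only. Etv5 (chr16:22437501-22442800, 69.8th percentile) had the same 3 calls and a neuron H3K4me3 peak no nearer than 170400 bp. Spry4 (93.5th percentile, 4600 bp wide, in a peak shared with an end of Arhgap26) and Spred3 (chr7:29167051-29172950, 72.8th percentile) had CHD4 in proliferating cells and none of the other 3 calls. The other 4 peaks, at Spry1 (47.1st percentile), Etv4 (41.4th), Fgfr2 (26.2nd) and Fgfr3 (18.2nd), had no CHD4 or p300 in either state. The 4 strongest of the 8 thus had CHD4 and the 4 weakest did not.

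**Figure D1:**
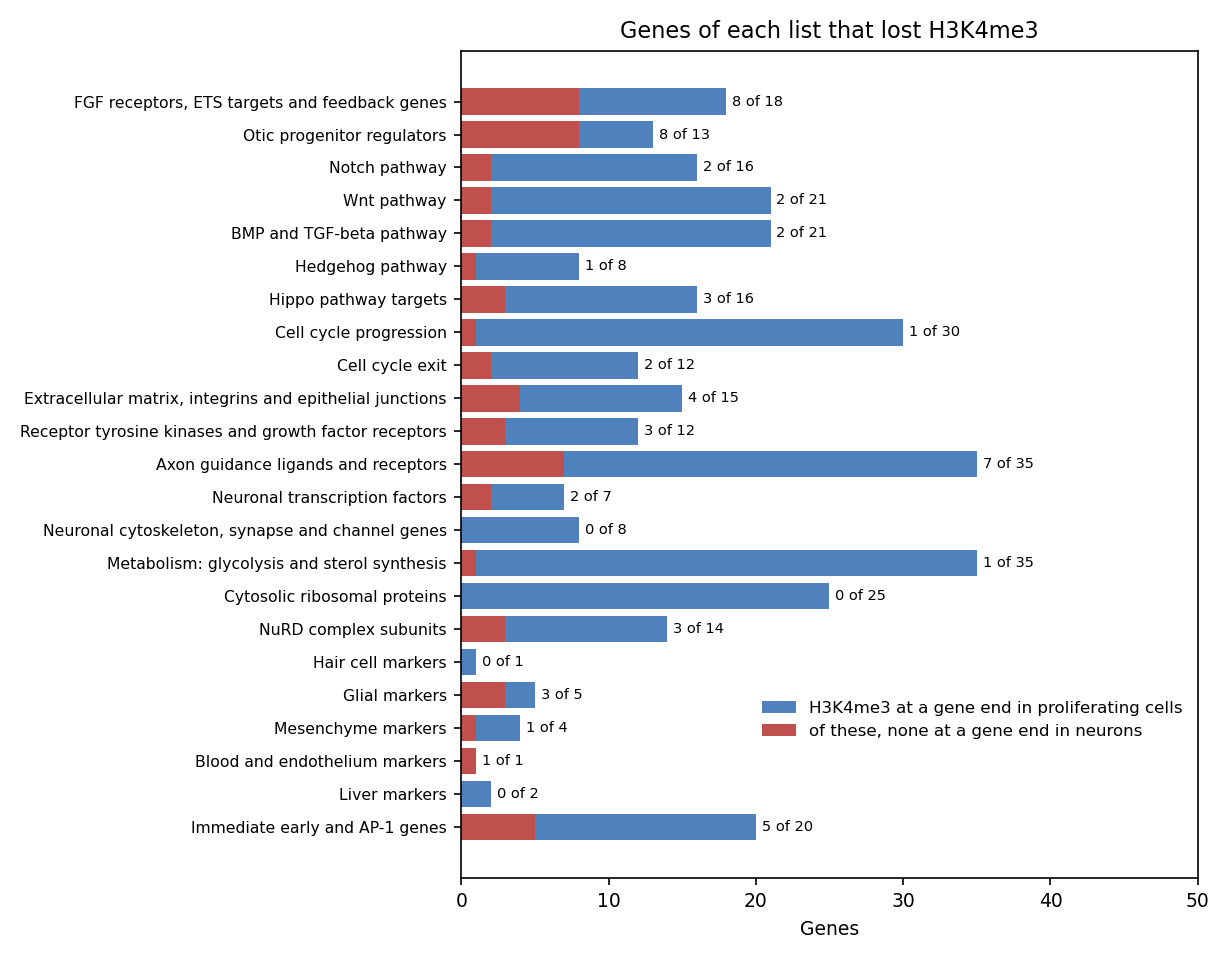
Genes of the 23 lists by H3K4me3. The horizontal axis counts genes; each full bar is the number with H3K4me3 within 1 kb of an end in proliferating cells, and its red part those with none in neurons. The FGF list (8 of 18) and the otic list (8 of 13) have the most red, against 21.9% over all marked genes.

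Regulators of otic and cranial placode development showed the highest share among lists with more than 5 marked genes. Of 34 such genes, 13 were marked in proliferating cells and 8 of these had no H3K4me3 at an end in neurons (61.5%, 31.6 to 86.1, against 21.9% of all marked genes). Among them were the T-box factor Tbx2, the homeobox genes Gbx2, Dlx6 and Otx1, and the transcriptional cofactors Eya1 and Eya4. Sox2, Sox9, Sox21, Hmga2 and Six4 kept the mark. Tbx2 (chr11:85840701-85847450, 83.6th percentile) stood well above the others, of which Gbx2 was next at the 44.4th and Eya4 last at the 2.1st. It was also the only one of the 8 with any CHD4 or p300 call over its peak, CHD4 in neurons. Some of these peaks were isolated, with the nearest neuron H3K4me3 at 930900 bp for Eya1 and 822650 bp for Dlx6. Since the marked otic genes were weak, at a median percentile of 44.4, their share is read beside the strength of the peaks given below.

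Hes1 and Id3, effectors of Notch and BMP signalling, had 2 of the strongest lost peaks at gene ends. Hes1, a repressor that Notch induces (chr16:30062001-30067850, 85.9th percentile), had CHD4 and p300 in proliferating cells and neither in neurons. Maml2, a Notch coactivator, was the other lost member of 16 marked, and Dll1, Notch1, Hes5 and Jag1 were kept. Id3, an inhibitor of bHLH factors that BMP induces (chr4:136138751-136149750, 11000 bp wide, 93.3rd percentile), had CHD4 in both states and p300 in proliferating cells only. Of 21 marked BMP and TGF-beta genes the only other lost member was Inhbb (8.7th percentile), and Id1, Id2 and Id4 were kept. Wnt genes lost 2 of 21 (Fzd1 and Wnt10a), Hedgehog genes 1 of 8 (Cdon) and Hippo genes 3 of 16 (Nuak2, Tead2 and Lats2). The intervals of all 5 pathway lists included the 21.9% lost over all marked genes.

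**Figure D2:**
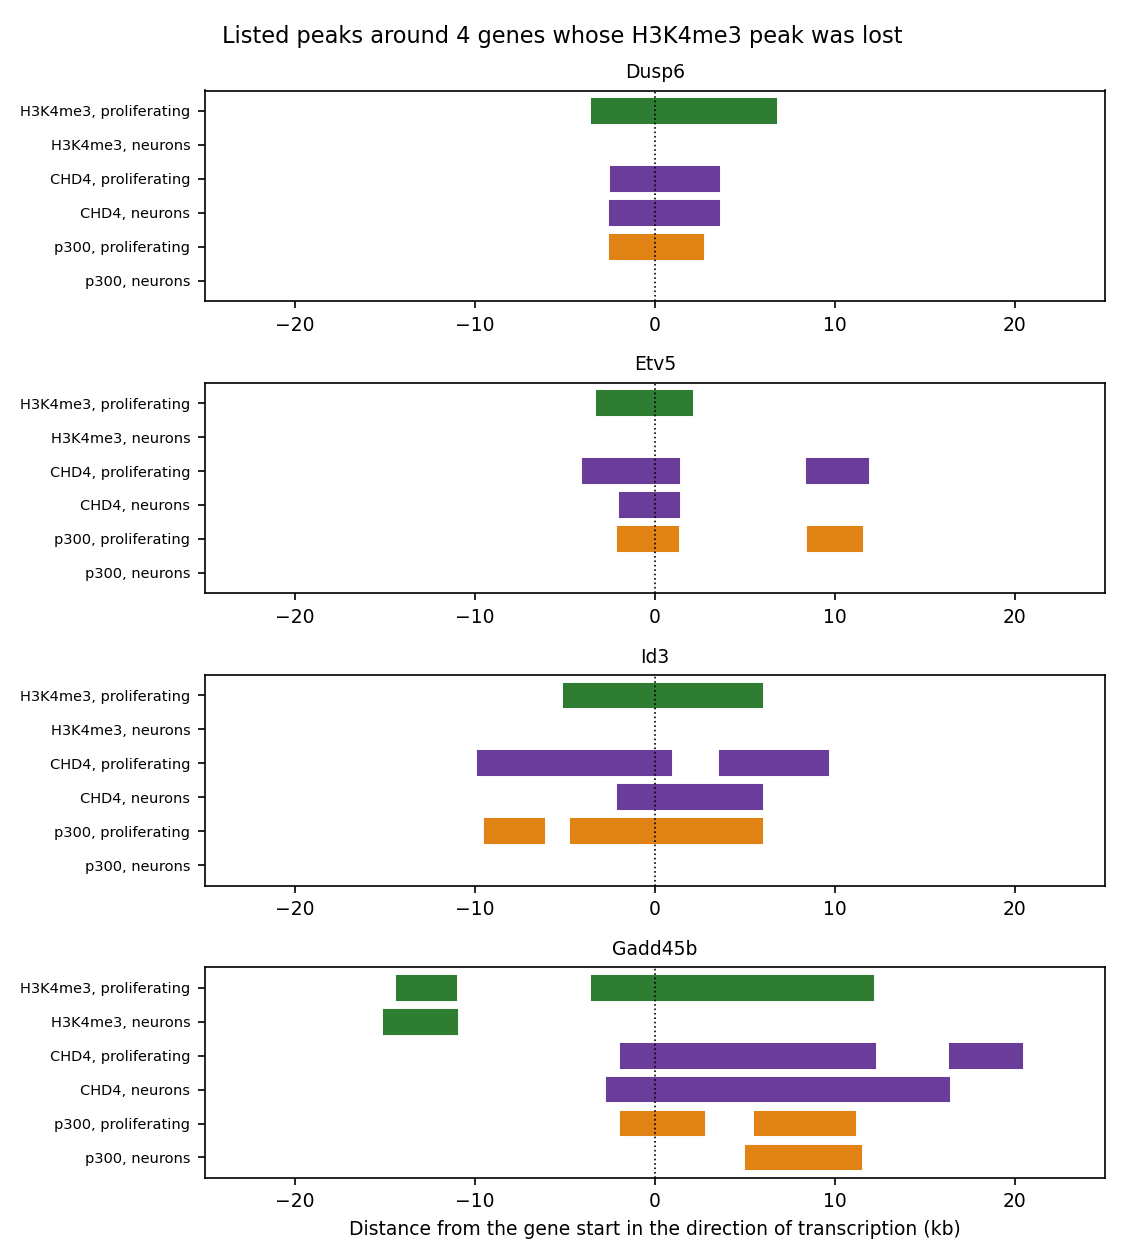
Listed peaks at Dusp6, Etv5, Id3 and Gadd45b by antibody and state. The horizontal axis is distance from the gene start in kb in the direction of transcription, and each bar is 1 peak, clipped at the panel edge. All 4 genes lack a neuron H3K4me3 peak over the start where CHD4 is listed in both states, and only Gadd45b has p300 in neurons.

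Of 30 marked genes of cell-cycle progression only Ccnd1 was lost (3.33%, 0.0844 to 17.2, against 21.9% of all marked genes). Ccnd1, which encodes the cyclin D1 that growth factors induce, had a peak at chr7:144936001-144944200 that was 8200 bp wide, at the 27.7th percentile and without CHD4 or p300, and Mki67, Pcna, Cdk1 and Ccnb1 were among the 29 kept. Among 12 marked genes of cell-cycle exit, 2 were lost (16.7%, 2.09 to 48.4, an interval that includes the 21.9%). Gadd45b, a stress sensor (chr10:80926601-80942200), had 1 of the widest lost peaks at 15600 bp, with CHD4 and p300 in both states, and Rbl1, a relative of the retinoblastoma protein, was at the 3.3rd percentile. All 25 ribosomal protein genes were kept, and of 35 glycolysis and sterol genes only Pfkp was lost. Chd4 itself was kept, as were 10 of the other NuRD genes, and the 3 lost of 14 (21.4%, near the 21.9% of all marked genes) were Chd3 (76.3rd percentile, CHD4 and p300 in both states), Rbbp7 and Mbd2.

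Signalling and adhesion genes gave shares near that of all marked genes. Among 35 marked axon guidance genes 7 (20.0%, against 21.9%) were listed in proliferating cells only: the semaphorins Sema4b, Sema4d and Sema3f, the netrins Ntn1 and Ntn4, the netrin receptor Unc5c and the plexin Plxna3. Sema4b does not belong to the lost peaks, because its proliferating peak (98.8th percentile) overlapped a neuron peak that did not reach the gene end. Of 12 marked receptor tyrosine kinases and growth factor receptors, Egfr, Erbb2 and Gfra1 were lost, none with CHD4 or p300. Matrix and adhesion genes lost 4 of 15 (Sparc, Itgb5, Cdh4 and Hspg2). Of these 4, 3 had CHD4 in proliferating cells, against 332 of all 1797 lost genes, a count too small to read. Immediate early genes lost 5 of 20 (Klf2, Egr3, Maff, Egr2 and Atf3), and Fos, Jun, Junb and Myc were kept. The neuronal transcription factors Ebf1 and Onecut2 were lost out of 7 marked, and the glial markers Olig2, Egr2 and Slc1a3 out of 5. Of the other marker lists, Cd68 of macrophages was the 1 marked blood gene and was lost. Its peak also reached ends of Eif4a1 and Mpdu1 and lay 50 bp from a neuron peak, and Eif4a1 kept H3K4me3 at an end in neurons. Zeb2 was 1 of 4 marked mesenchyme genes and, like Sema4b, had a proliferating peak that met a neuron peak away from the gene end. The marked hair cell gene Myo6 and both marked liver genes were kept. The small lists have wide intervals, as for glia at 14.7 to 94.7%.

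Of the 5 strongest lost peaks by total signal, 4 lay over multi-copy loci, the other being that of Dusp6. Besides the histone peak, with a total signal of 740759, these were a peak over the small nuclear RNA genes Gm25890 and Gm22614 (chr3:96481651-96492150, 99.2nd percentile), a peak that held Rn4.5s with the predicted genes Gm40367 and Gm40369 (chr6:47646601-47661800, 98.6th), and the widest lost peak, 17350 bp over 10 copies of the 5S ribosomal RNA gene beside Gas8 (chr8:123536701-123554050, 96.3rd). None of these 4 had CHD4 or p300 in either state. By highest signal the wide peak beside Gas8 ranked low, at a percentile of 0.428. A cluster of related predicted genes that includes Gm13285 and Gm13287, whose upstream 250 bases were the same letter for letter, held 10 lost peaks in a row within 34250 bp (chr4:88772901-88807150). CHD4 was listed at 2 of these in proliferating cells (20.9% over all lost peaks) and at 6 in neurons (13.4%), and p300 at 3 in proliferating cells (12.3%). As neighbours in a cluster of related genes, the 10 peaks are not separate sites, and no gain of CHD4 is read from the counts. Whether the mapping of reads to repeated sequence had a part in these calls was not tested.

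Histone genes also lay under lost peaks elsewhere. Of 41 marked core and linker histone genes, a group chosen after the values were seen, 15 were listed in proliferating cells only (36.6%, 22.1 to 53.1, against 21.9% of all marked genes). They lay under 6 lost peaks, the one on chromosome 3 and 5 on chromosome 13 that hold H2ac11, H2bc11, H4c9, H2ac12, H2bc12, H1f5, H1f4, H2bc6, H1f1, H3c1 and H4c1. Genes that share a peak are not separate calls, so this interval is too narrow and no excess is read from it. All 5 peaks on chromosome 13 had CHD4 in both states and p300 in proliferating cells only, whereas the lost peak on chromosome 3 had none. The pattern of those 5 was found at 136 of all 1943 lost peaks. The peak over H2ac11, H2bc11 and H4c9 and that over H2ac12 and H2bc12 met the same CHD4 peak in each state. That CHD4 peak was 13050 bp wide in proliferating cells and 11100 bp in neurons. The 5 peaks are thus not separate CHD4 calls, and no excess is read from them. The H3K4me3 peaks on chromosome 13 ranked low, from the 2.06th to the 35.7th percentile. Of other families chosen in the same way, zinc finger genes lost 68 of 230 (29.6%, 23.7 to 35.9), forkhead genes 8 of 19 (42.1%, 20.3 to 66.5) and mitochondrial ribosomal proteins 8 of 60 (13.3%, 5.94 to 24.6). Their marked genes were weak, at median percentiles of 47.5, 43.5 and 44.0 against 56.1 over all marked genes. These shares too are read beside the strength of the peaks given below. Solute carriers (27 of 124, 21.8%) and complex I genes (9 of 42, 21.4%) were at the share of all marked genes.

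Lost peaks were the weak end of the list. Their median percentile by total signal, the value summed over a peak, was 16.8 against 62.1 for kept peaks, and their median width was 3150 bp (950 to 17350) against 3900 bp (1550 to 36550). In 4 bins of equal size by total signal, weakest first, 69.6%, 26.9%, 6.10% and 1.45% were lost, the last being 27 peaks. By width, 53.8% of peaks up to 2500 bp and 13.2% of those over 5000 bp were lost. The rule compares listings, so these values describe the members and were not tested. The lowest total in the neuron list was 144614, and 96.4% of lost peaks (1874) had a proliferating total below it, as did 48.9% of kept peaks. The sources used here do not state how the authors scaled the signal, so it is not known whether these totals share a scale.

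**Figure D3:**
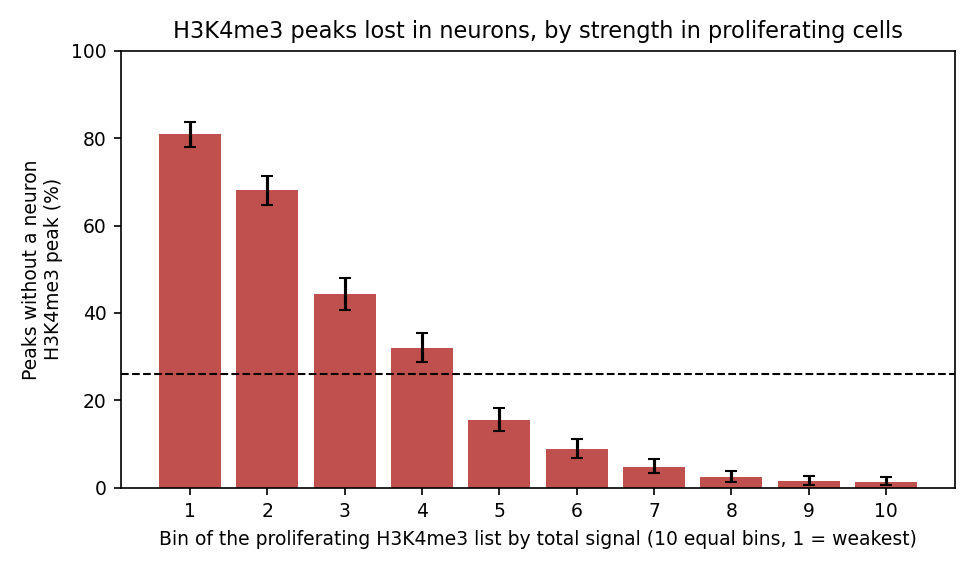
Share of proliferating H3K4me3 peaks without a neuron H3K4me3 peak (vertical axis, percent) in 10 equal bins of the list by total signal, weakest first; bars carry exact 95% intervals and the dashed line is the 26% of all peaks. The share falls from 81% in the weakest bin to 1.34% in the strongest, where 10 of 748 peaks were lost.

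**Figure D4:**
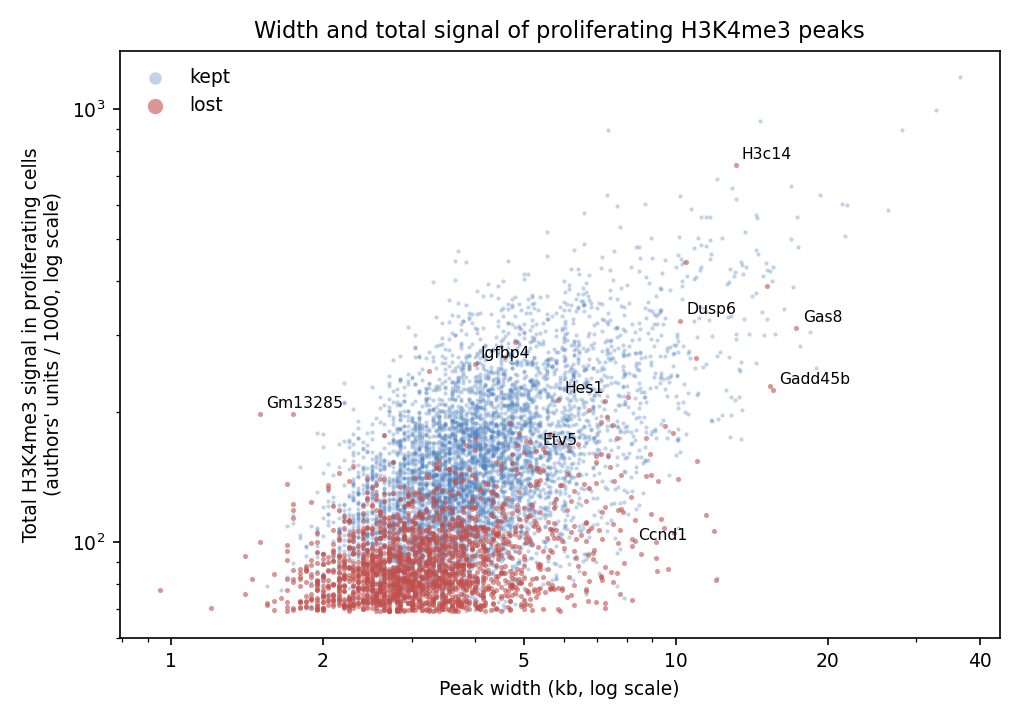
Width (kb, log scale) and total signal (in units of 1000 of the authors' scale, log axis) of each proliferating H3K4me3 peak, lost in red and kept in blue. Lost peaks lie mostly along the lower edge, with a few named peaks, such as that of H3c14 at 740759, among the strongest of the list.

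Most lost peaks were far from any neuron H3K4me3 peak, so few were matters of a boundary. The median gap was 68975 bp, 1138 peaks (58.6%) had their nearest more than 50 kb away, and 9 had it within 1 kb. Just inside the rule were the peak at Cd68, Eif4a1 and Mpdu1 and that at Irf2bp2, each 50 bp from a neuron peak. Just outside it, the smallest overlaps of kept peaks were 1400 bp, at Glmn and Rpap2 and within Evi5. Along the chromosomes 1003 lost peaks stood alone between kept peaks, 269 runs held 2, and the longest runs held 10; whether these counts depart from those that the lost share alone would give was not tested. Besides the Gm13285 cluster, the other run of 10 was on the X chromosome and had no CHD4 or p300 at any of its peaks. The X chromosome lost 46 of 106 peaks (43.4%, 33.8 to 53.4) and chromosome 3 the smallest share, 59 of 427 (13.8%, 10.7 to 17.5). The median percentile of the 106 X peaks was 24.1, and in the weakest of the 4 bins the X share was 74.1% against 69.6% for all chromosomes, a smaller difference than over the whole list.

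Lost peaks were at gene ends somewhat less often than kept ones. Within 1 kb of an end of a protein-coding gene lay 1621 lost peaks (83.4%, 81.7 to 85.1), against 91.2% of kept peaks and 89.2% of all. A further 215 (11.1%) lay in gene bodies, against 7.0% of kept peaks, and 107 (5.51%) outside protein-coding genes, against 1.77%. Read the other way, 24.3% of peaks at gene ends, 35.7% of those in gene bodies and 52.2% of those outside were lost. Of the 322 lost peaks away from gene ends, 113 (35.1%) lay at a non-coding gene, against 38.1% of such kept peaks. Of the same 322, 83 lay at a long non-coding RNA (25.8%, against 30.9% kept) and 23 at a tRNA gene (7.14%, against 4.95%). At the gene level, 1737 of the 1797 genes had a lost peak at an end, and 51 lost peaks at gene ends left all their genes marked elsewhere, as at Lama5 (chr2:180221851-180229350) and between Bcan and Nes (chr3:87979651-87991650, 12000 bp wide). Over annotated starts, the highest signal lay a median of 103 bp downstream in 1395 lost peaks and 72 bp downstream in 4397 kept peaks.

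Their promoters were rich in CG, though less so than those of kept peaks. Among 1684 start sites of protein-coding genes under lost peaks, the observed-to-expected ratio of CG in the 250 bases upstream had a median of 0.746. The median was 0.815 at 6271 under kept peaks, 0.530 over all 21263 protein-coding promoters and 0.373 over all 32851 promoters of the table. The last are not limited to protein-coding genes, and the motif shares below over all promoters refer to them. In the 2 weaker of the 4 bins the medians were 0.753 and 0.740 for lost against 0.789 and 0.831 for kept peaks. GGGCGG, a core bound by Sp factors, was found in 66.7% of lost, 66.0% of kept and 32.7% of all promoters. CCAAT gave 37.1%, 37.1% and 33.8%, and the E-box CACGTG 9.20%, 8.90% and 6.02%. The ETS core GGAAGT was found in 18.8% (17.0 to 20.8) of lost and 23.7% (22.7 to 24.8) of kept promoters, against 19.7% of all. TATAAA (5.23%, 4.32% and 12.4%) and the AP-1 site TGACTCA (2.61%, 2.01% and 4.46%) were rarer in lost and kept promoters than in the table. Both strands were searched, and none of these motifs holds another.

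The CHD4 and p300 libraries took no part in choosing the peaks. CHD4 lay over 406 lost peaks in proliferating cells (20.9%, 19.1 to 22.8), against 29.5% of kept peaks and 27.2% of all, and over 260 in neurons (13.4%, 11.9 to 15), against 22.0% of kept and 19.8% of all. p300 lay over 239 lost peaks in proliferating cells (12.3%, 10.9 to 13.8), against 20.6% of kept and 18.4% of all. In neurons p300 lay over 49 lost peaks (2.52%, 1.87 to 3.32), close to the 2.37% of kept and 2.41% of all. For CHD4 in both states and p300 in proliferating cells, the lost share was lower and its interval lay wholly below the kept share. No CHD4 or p300 was listed in either state at 1493 lost peaks (76.8%), against 66.6% of kept and 69.3% of all.

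In bins by total signal this order was reversed except in the strongest bin, where it held for CHD4 and p300 in proliferating cells. The proliferating list was also trimmed to its strongest 5625 peaks, the number in the neuron list. There CHD4 in proliferating cells lay over 36.9% of 654 lost and 32.2% of 4971 kept peaks. CHD4 in neurons (23.9% against 24.0%) and p300 in proliferating cells (22.5% against 22.6%) were nearly level in the trimmed list. In the 4 bins from weakest to strongest, CHD4 in proliferating cells lay over 12.8%, 31.9%, 57.0% and 55.6% of lost peaks and 5.28%, 8.42%, 24.3% and 57.5% of kept peaks. For p300 in proliferating cells the lost shares were 7.23%, 19.1%, 35.1% and 33.3%, and the kept shares 2.46%, 4.76%, 14.8% and 43.5%. CHD4 in neurons gave 8.0%, 18.9%, 41.2% and 51.9% of lost against 4.58%, 4.98%, 15.5% and 46.3% of kept peaks. Bins were also split by width, and 11 of the 16 cells, none of them from the strongest bin, held at least 20 lost and 20 kept peaks. Among these the lost share was higher in 11 of 11 for CHD4 in both states and for p300 in proliferating cells, and in 9 of 11 for p300 in neurons. The order also depended on the measure of strength. In 4 bins by highest signal, a ranking added after the values were seen, CHD4 in proliferating cells lay over 23.5%, 16.2%, 20.7% and 30.6% of lost and 21.0%, 23.9%, 26.2% and 40.6% of kept peaks, so the lost share was lower in 3 of the 4 bins. No direction at matched strength is therefore given.

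**Figure D5:**
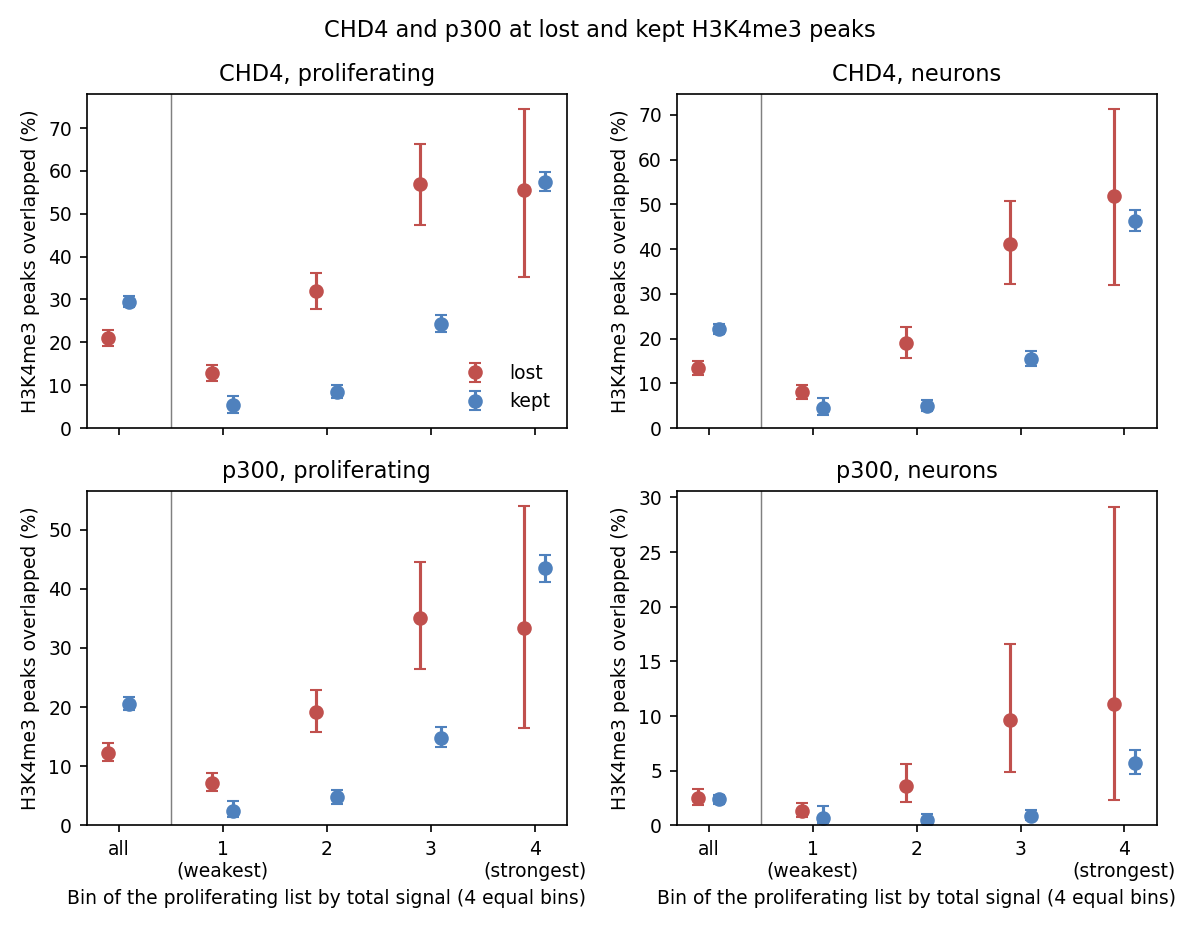
Share of H3K4me3 peaks (vertical axes, percent; each panel has its own scale) that CHD4 or p300 overlaps, for lost (red) and kept (blue) peaks, over all peaks and in 4 bins of the list by total signal. Bars are exact 95% intervals. Over all peaks lost lies below kept for CHD4 (20.9 against 29.5% in proliferating cells), and within the bins labelled 1, 2 and 3 above it.

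Lost peaks with CHD4 in proliferating cells often had CHD4 in neurons too. Of the 406 with CHD4 in proliferating cells, 226 also had it in neurons (55.7%, 50.7 to 60.6), against 65.5% of such kept peaks and 63.6% of all such peaks. Only 34 lost peaks had CHD4 in neurons alone. p300 was listed in both states at fewer: 43 of 239 (18%, 13.3 to 23.5) had it in neurons too, against 10.1% of kept and 11.5% of all peaks with p300 in proliferating cells. The neuron p300 list was short, with 965 peaks against 3144. With p300 lists of equal length, p300 lay over 4.53% of lost peaks in proliferating cells and 2.52% in neurons. The share with p300 in both states was not computed at equal length, so whether list length had a part in it was not tested. Where p300 lay over a lost peak in proliferating cells, CHD4 did so in 94.1% (225 of 239), against 92.4% of such kept peaks. All 49 lost peaks with p300 in neurons had CHD4 there, as did all 131 such kept peaks. The most common pattern with a call was CHD4 in both states with p300 in proliferating cells only (136 peaks), followed by CHD4 in proliferating cells alone (133). CHD4 peaks in neurons that covered lost sites had a median width of 5625 bp and a median percentile of 53.6 in their own list, against 5100 bp and 40.9 for those over kept sites.

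Named examples fill out these patterns. With CHD4 in both states, the strongest lost peaks by total signal after Dusp6 and Id3 were at Rara, a retinoic acid receptor gene (chr11:98958651-98974050, 15400 bp wide, 89.0th percentile), and Gadd45b. They were followed at gene ends by Smtn, Lama5 and Snn. By highest signal the wide peaks at Rara and Gadd45b ranked low, at percentiles of 1.81 and 2.98. Hes1, Ap3m2, Gm13288, Pdk1, Iqsec1 and Aldh4a1 had CHD4 and p300 in proliferating cells and neither in neurons. CHD4 in neurons alone was found at Tbx2, Zfpm1 and Zbtb20 and at 3 peaks of the Gm13285 cluster among the 8 strongest of this kind. p300 stayed listed in neurons at Rara, Gadd45b, Chd3, Adora1, Lrrc8b and Fgf18, the last a growth factor of the FGF family. It was listed in neurons only at 6 lost peaks, those at Zbtb20, Eapp, Alyref2 and Mcf2l and within Btbd17 and Sh3pxd2a. Igfbp4 (chr11:99039401-99043400, 92.5th percentile), which encodes a binding protein of insulin-like growth factors, had CHD4 in proliferating cells alone.

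The CHD4 and p300 shares differed by location. Of the 107 lost peaks outside protein-coding genes, 66 had CHD4 in proliferating cells (61.7%, 51.8 to 70.9) and 42 had p300 (39.3%, 30.0 to 49.2), close to 55.1% and 40.8% of the 98 kept peaks there. At gene ends the shares were 17.1% and 9.93% of lost against 28.7% and 20.4% of kept peaks. In gene bodies p300 in neurons lay over 17 of 215 lost peaks (7.91%, 4.67 to 12.4) and 2.84% (1.43 to 5.03) of kept peaks. The strongest lost peaks away from gene ends that had CHD4 in both states were at chr8:84196601-84204650 (86.4th percentile) and within Adh7 (chr3:138213551-138223450, 76.5th), each with p300 in proliferating cells only, and a peak within Ptpn3 (chr4:57298551-57303250, 80.4th) had CHD4 in proliferating cells alone.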

How the data were processed

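The 6 peak lists hold 6 columns in the layout of SEACR output. Columns 4 and 5, total and highest signal, are the values the authors deposited, on a scale the sources used here do not state, and signal ranked peaks only within a list. Build mm10 and the tools SEACR, Bowtie2 and deepTools are named in the submitters' processing notes. Whether a list pools libraries is not stated, and each was treated as 1 library. Depth is unknown, as the lists hold no read numbers. Overlap meant at least 1 bp, and positions run in steps of 50 bp, counted from 1. Genes (21887 protein-coding) and promoters came from RefSeq tables of GRCm38.p6, and 17492 of these genes had a promoter entry. SciPy 1.17.1, pandas 2.3.3 and numpy 2.4.6 under Python 3.11.15 computed overlaps and exact (Clopper-Pearson) 95% intervals, with overlap code tested on simulated data. Members and 23 gene lists (663 genes) were chosen with earlier results of these data known. Genes were named by rule: the 12 strongest and 8 widest lost peaks at gene ends, list members, the 8 strongest of each CHD4 and p300 pattern, and the 5 strongest away from gene ends. Alternatives changed overlap, list length, window and strength. No p-values are given. A few members of the lists are counted but not reported here by name.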

Additional observations from a re-analysis of the deposited data

How the results depend on the processing

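Allowing H3K4me3 peaks 1 kb apart to match left 1934 lost peaks, a required cover of 50% left 2004, and both kept every share inside its interval. List length mattered most. With the stronger 50% of the proliferating list, 141 peaks and 188 genes were lost, 79.4% at gene ends, with CHD4 at 56.7% in proliferating cells and 43.3% in neurons and p300 at 34.8% and 9.93%. With that list trimmed to the length of the neuron list, 654 peaks and 660 genes were lost, with CHD4 at 36.9% and 23.9% and p300 at 22.5% and 4.89%, against 32.2% and 24.0%, and 22.6% and 2.55%, of kept peaks. The share at gene ends was 85.5% with a 2.5-kb window and 72.1% with start sites only. The stronger 50% of the CHD4 lists gave 10.04% and 7.31%, the stronger 50% of the p300 lists 6.43% and 1.39%, and p300 lists of equal length 4.53% in proliferating cells. The other 28 values stayed within 1.5 times the count or within the interval. The causes were not tested. No paired analysis was possible because each antibody had 1 library per state. Depth was unknown, so a weak lost peak cannot be told apart from one that fell below the neuron list's threshold.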
